A study of Homo sapiens with 52 samples.

Results

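The aminoacyl-tRNA synthetases are the enzymes that join each amino acid to its transfer RNA (tRNA), and their mRNAs were followed here in WI-38, a normal fibroblast line from human lung that divides a limited number of times. Members were picked by a rule on gene symbols that used no measured value, and numbered 38 of the 59408 genes listed. The family itself was chosen with earlier results of these data known. Symbols ending in 2 were taken as enzymes of the mitochondria (17 genes) and the others as enzymes of the cytosol (21 genes). The untreated cells were young cells at a population doubling level (PDL) of 32 to 46. Other cultures received, over 24 h, 1 of 3 inducers. These were the detergent SDS at 0.0090%, which damages the plasma membrane, KCl at 75 mM, which brings calcium ions into the cell, and the DNA-damaging drug doxorubicin (DXR) at 250 nM. The senescent cells that follow are called PMD-Sen after SDS, Ca2+-Sen after KCl and DDR-Sen after DXR. Cells were collected on 8 days from day 0, the end of the treatment, to day 16. Replicatively senescent (RS) cells had been passaged to a PDL of around 52 without an inducer. All groups were of 1 cell line. RS cells also differ from the untreated cells in passage number, and the labels give no PDL for the treated cells.

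A synthetase selects its amino acid and its tRNA and so sets the accuracy of translation. Most cells keep separate enzymes for the cytosol and for the mitochondrial ribosome, whereas GARS1 and KARS1 serve both compartments from 1 gene each. Several cytosolic enzymes sit in a multisynthetase complex with the scaffold proteins AIMP1, AIMP2 and EEF1E1. When amino acids run short or the endoplasmic reticulum is stressed, phosphorylation of eIF2alpha favours translation of the transcription factor ATF4, whose known targets include genes of amino acid import and synthesis and many cytosolic synthetases. WARS1 is in addition a classical gene of the interferon response.

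The element through which ATF4 and its C/EBP partners bind DNA is written here as TGATGNAA, with N for any base, and was searched on both strands of the RefSeq promoter windows of GRCh38.p14. Each window runs from 250 bases before to 50 bases after an annotated start site, and a gene can have more than one. Of the 38 members, 30 had a window, and LARS1, TARS3, VARS1, YARS1, AARS2 and VARS2 were among those with none in that table. The letters were found in 8 of the 30 members, against 4.46% of the 27305 genes and 3.62% of the 35116 windows in the table. The stretches are printed because 7 of the 8 belong to cytosolic enzymes that are described below as higher at the end of SDS treatment. They are given 5′ to 3′ on the strand that carries the match, with the match in capitals.
GARS1 (chr7:30594834-30594863, minus strand): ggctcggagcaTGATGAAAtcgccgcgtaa
CARS1 (chr11:3057407-3057436, plus strand): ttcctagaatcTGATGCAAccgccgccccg
IARS1 (chr9:92293692-92293721, plus strand): gcgcacggaggTGATGCAAcgcgctgaaaa
NARS1 (chr18:57621804-57621833, minus strand): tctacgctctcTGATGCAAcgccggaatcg
AARS1 (chr16:70289675-70289704, plus strand): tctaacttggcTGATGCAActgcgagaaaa
MARS1 (chr12:57488053-57488082, minus strand): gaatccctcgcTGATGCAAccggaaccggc
TARS1 (chr5:33440956-33440985, minus strand): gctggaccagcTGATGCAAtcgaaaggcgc
YARS2 (chr12:32756076-32756105, minus strand): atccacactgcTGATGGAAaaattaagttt
Counted from the start site of the window, the first base of the match lay at -33 in GARS1, -2 in CARS1, -13 in IARS1, -4 in MARS1, 3 in TARS1 and 15 in NARS1. In AARS1 and YARS2 the match lay farther upstream, at -187 and -197. In GARS1 and TARS1 the start site of the window lies downstream of the first base of the gene as annotated. A match describes these letters only, and a window without one says nothing about binding elsewhere.

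Each deposited table set 1 treatment day, or RS, against the untreated cells and gave a mean normalized count and a log2 fold change with a standard error, but nothing for single libraries. Levels below are mean normalized counts of a group on the scale of the RS table, errors given with ± are the authors' standard errors over 2 libraries against 2, and whether single libraries overlapped could not be seen. The study's methods call the libraries of a group independent samples, and the labels do not say whether they came from separate cultures, so p-values measure the spread between these libraries. All 25 comparisons share the same 2 untreated libraries, which were the smallest, with 15.4 M and 18.8 M counted reads against 19.1 M to 58.0 M in the others. A gene was called where its Benjamini-Hochberg adjusted p was under 0.05 over the 15479 genes with a mean level of at least 10. The fibroblast markers were high (9 genes, at least 4238 in untreated cells), and the epithelial and white blood cell markers summed to at most 27.3 in any group. The 3 endothelial markers summed to 32.4 to 219.6 over the groups, highest on day 0 of Ca2+-Sen, where PECAM1 went from 2.77 to 136 and was called, VWF from 43.6 to 82.8 and was not, and CDH5 was too low to test. In bulk RNA, fewer cells of a type and less RNA per cell cannot be told apart.

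Of the members, 20 cytosolic and 15 mitochondrial genes passed the filter on low levels. VARS1 and VARS2, the cytosolic and mitochondrial valine enzymes, and SARS2, the mitochondrial serine enzyme, did not. VARS2 was listed at 0 in all 25 tables and SARS2 in 24, and the table mean of VARS1 ranged from 0 to 1.12. The neighbouring rows were often empty as well. Of the 20 genes listed next to each, 17 around VARS2, 11 around VARS1 and 8 around SARS2 were at 0 in every table, compared with 22.1% of all genes. The elongation factor gene EEF1G, which every cell uses, was likewise listed at 0, so these zeros are given only as listed. The cause was not tested.

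At the end of SDS treatment the cytosolic enzymes rose together. Of the 20 tested, 14 were called higher and 0 lower, with 0 lower also at an unadjusted p under 0.05 in the authors' test, while 19% of all genes tested were called higher and 19.3% lower. Their median log2 fold change was 1.12, that of all genes tested was -0.01, and the summed level of the cytosolic enzymes went from 88440 to 186347 (2.11-fold). A rise of at least 1 on the log2 scale was called in 11 of the 20 enzymes and in 6.62% of all genes tested. In the same group 7 of the 9 fibroblast markers were called lower and 1 higher (median -0.96), and their summed level was 0.855 times that of untreated cells. The part of this shift in the rise of the synthetases was not tested.

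GARS1, the glycine enzyme of both compartments, showed the largest rise among the members. Its level was 7492 in untreated cells and 26512 after SDS, a log2 fold change of 1.82 ± 0.09 (adjusted p = 1.6e-87). CARS1, the cysteine enzyme, went from 547 to 1646 (log2 fold change 1.59 ± 0.53), with the widest error of the cytosolic enzymes. WARS1, the tryptophan enzyme, went from 5560 to 14609 (1.39 ± 0.11). The enzymes for isoleucine (IARS1, 1.31 ± 0.09), glutamate and proline (EPRS1, 1.29 ± 0.10), asparagine (NARS1, 1.28 ± 0.09) and alanine (AARS1, 1.19 ± 0.12) followed. MARS1, YARS1, TARS1 and SARS1, for methionine, tyrosine, threonine and serine, lay between 1.12 and 1.18. FARSA, the catalytic subunit for phenylalanine (0.59 ± 0.11), LARS1 for leucine (0.39 ± 0.11) and RARS1 for arginine (0.34 ± 0.10) rose less.

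The remaining 6 cytosolic genes were not called. They included KARS1 for lysine (log2 fold change 0.16 ± 0.10), TARS3, a second threonine enzyme (0.14 ± 0.18), QARS1 for glutamine, FARSB, the second phenylalanine subunit (-0.12 ± 0.13), and HARS1 for histidine. GARS1 and KARS1, both of which also supply the mitochondria, therefore stood at opposite ends of the cytosolic enzymes. FARSA and FARSB encode the subunits of 1 enzyme, and their 95% intervals at the end of SDS treatment (0.37 to 0.80 and -0.36 to 0.13) did not overlap. Among enzymes of the multisynthetase complex 5 of 8 were called higher, with a median of 0.37, and outside it 9 of 12, with a median of 1.15. By catalytic fold, 8 of 9 class I enzymes and 6 of 11 class II enzymes were called higher. EPRS1, which serves both glutamate and proline, was counted in class I only. Of the 12 cytosolic genes called higher that had a promoter window, 7 held the TGATGNAA letters, as did 0 of the 4 that had a window and were not called.

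**Figure D1:**
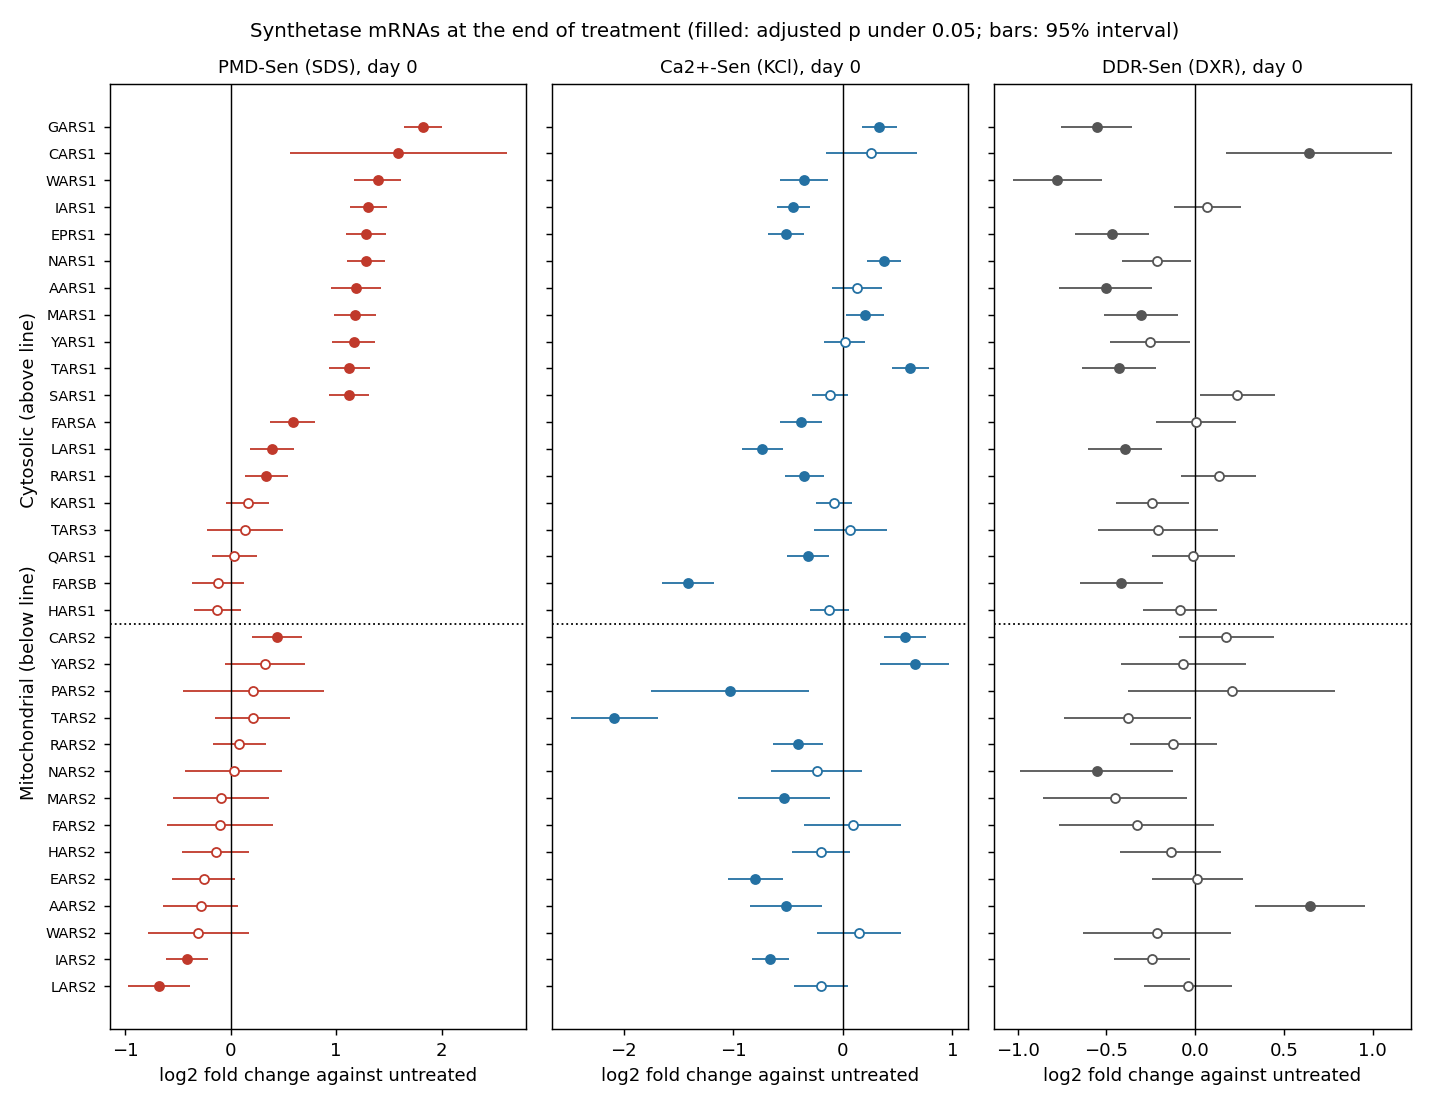
Log2 fold change against untreated cells at day 0 of PMD-Sen, Ca2+-Sen and DDR-Sen for 33 of the synthetases tested, with cytosolic genes above the dotted line. Points are the authors' estimates, bars their 95% intervals, and filled points have an adjusted p under 0.05; the 14 filled cytosolic points after SDS all lie to the right of 0. The horizontal scale differs between panels.

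The genes set beside the synthetases moved in the same cells. Of 14 genes tested from the list of ATF4 and its targets, 13 were called higher at the end of SDS treatment, with a median log2 fold change of 2.33. ATF4 itself went from 6239 to 18761 (1.59 ± 0.09). TRIB3, a pseudokinase induced by ATF4, rose by 4.27 ± 0.12 on the log2 scale. DDIT3, which encodes the C/EBP partner CHOP, rose by 3.73 ± 0.15, and ASNS, which makes asparagine, by 3.46 ± 0.41 from a low level of 26.4. ATF5 was not called (-0.24). Of the scaffolds, AIMP1 (0.30) and AIMP2 (0.47) rose and EEF1E1 (0.38) was not called. The genes for eIF2alpha kinases and phosphatase subunits had 5 of 6 called higher and 1 lower. None of the 3 genes tested for elongation factor 1 and none of the 3 for proofreading in trans were called by the authors' test, with 1 and 0 of them at an unadjusted p under 0.05.

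Of the 15 mitochondrial enzymes tested at the end of SDS treatment, 1 was called higher (background 19%) and 3 lower (background 19.3%). The share called lower was thus near that of all genes tested. Their median log2 fold change was -0.10. CARS2, the mitochondrial cysteine enzyme, went from 1882 to 2559 (0.44 ± 0.12). LARS2, for leucine, went from 1344 to 841 (-0.68 ± 0.15) and IARS2, for isoleucine, from 4930 to 3708 (-0.41 ± 0.10). For isoleucine and leucine the cytosolic and mitochondrial genes thus moved in opposite directions. The mitochondrial partners, which include the 3 genes of the glutamine amidotransferase and the formyltransferase MTFMT, had 0 of 4 called in the authors' test and 0 at an unadjusted p under 0.05.

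The rise ended within 1 day of the wash. Between day 0 and day 1 of PMD-Sen, 14 of the 20 cytosolic enzymes differed, 12 of them lower on day 1, and 4 of the 15 mitochondrial enzymes, 3 of them higher, while 27.7% of all genes tested differed. GARS1 dropped by 2.20 ± 0.13 on the log2 scale, to 5752, and WARS1 by 2.09 ± 0.16, to 3433, so that both lay below their untreated levels. LARS2 went the other way, by 0.90 ± 0.19, to 1569. On day 1 the cytosolic enzymes had 3 called higher than in untreated cells (HARS1, FARSA and FARSB; background 9.25%) and 7 lower (background 9.51%). The largest of these falls were in WARS1 (-0.69 ± 0.11) and AARS1 (-0.64 ± 0.12). TARS3 was called lower for the only time in the 25 comparisons (-0.50 ± 0.18). The mitochondrial enzymes had 4 higher, namely MARS2, YARS2, CARS2 and IARS2, and 1 lower, RARS2. On day 2 the cytosolic counts were 3 higher (background 8.43%) and 4 lower (background 6.69%), and the mitochondrial counts 2 and 0, with 5 and 1 at an unadjusted p under 0.05 in the authors' test. ATF4 on day 1 was at 3026, below its untreated level (-1.04 ± 0.09). The fibroblast markers had 7 of 9 called lower on day 1 and 8 of 9 on day 2, with summed levels 0.531 and 0.527 times the untreated one, and their part in these counts was not tested.

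**Figure D2:**
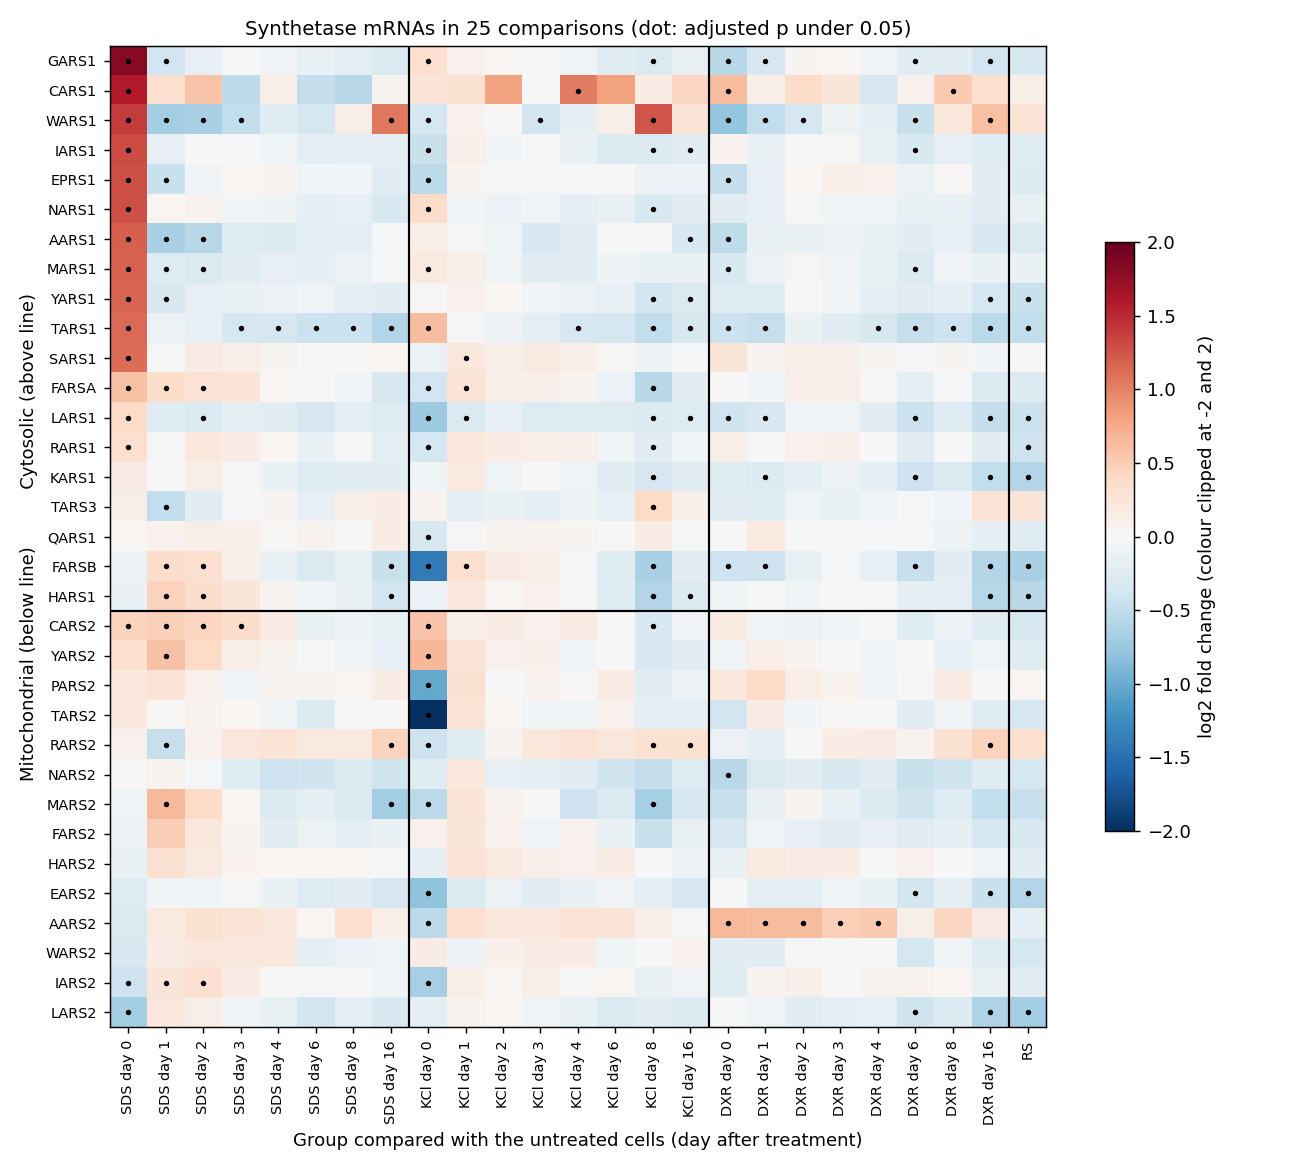
Log2 fold change of 33 tested synthetases (rows, cytosolic above the line, ordered by their change at SDS day 0) in the 25 comparisons with untreated cells (columns). Red is higher and blue lower, the colour is clipped at -2 and 2, and a dot marks an adjusted p under 0.05; the red block of cytosolic genes stands in the SDS day 0 column.

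At the end of KCl treatment more synthetases were called lower than higher in both compartments. Of the cytosolic enzymes 4 were called higher and 9 lower, and of the mitochondrial enzymes 2 higher and 8 lower, when 23% of all genes tested were called higher and 25.5% lower. The medians were -0.12 and -0.41. Under the authors' own adjusted p-value, and also without the filter on low levels, 3 cytosolic enzymes were called higher instead of 4. The fibroblast markers had 3 of 9 called higher and 6 lower in this group, with a summed level 0.439 times the untreated one, and the endothelial sum was at its highest. Their part in the synthetase counts was not tested. The 4 cytosolic rises were in TARS1 (from 4718 to 7223, log2 fold change 0.61 ± 0.09), NARS1 (0.37 ± 0.08), GARS1 (from 7492 to 9427, 0.33 ± 0.08) and MARS1 (0.20 ± 0.09), whose promoter stretches are printed with the others. IARS1, with the same letters, fell (-0.45 ± 0.08), and AARS1 (0.13 ± 0.12) and CARS1 (0.26 ± 0.21) were not called.

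The largest cytosolic fall was in FARSB, from 2000 to 751 (-1.41 ± 0.12), and its partner subunit FARSA also fell (-0.38 ± 0.10). LARS1 (-0.73 ± 0.09) and EPRS1 (-0.52 ± 0.08) came next. Among enzymes of the multisynthetase complex 6 of 8 fell, and the scaffold AIMP2 fell by 1.46 on the log2 scale. Of the mitochondrial enzymes, TARS2, for threonine, went from 559 to 132 (-2.09 ± 0.20), the largest fall of any member in the 25 comparisons. PARS2, for proline, went from 139 to 67.6 (-1.03 ± 0.37), and EARS2, for glutamate, fell by 0.80 ± 0.13. YARS2, for tyrosine, rose from 457 to 720 (0.66 ± 0.16) and CARS2 from 1882 to 2793 (0.57 ± 0.10). The ATF4 list had 12 of 14 genes called higher on this day, with a median of 0.94, and ATF4 reached 16123 (1.37 ± 0.09). It had been at 18761 after SDS, so that the ATF4 mRNA was raised on day 0 by both inducers. Of the cytosolic synthetases, 14 were called higher after SDS (background 19%) and 4 after KCl (background 23%). These data hold no measure of ATF4 translation, and the part of ATF4 in either count was not tested.

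After the KCl wash, 12 of the 20 cytosolic enzymes differed between day 0 and day 1, 10 of them higher on day 1, and 9 of the 15 mitochondrial enzymes, 8 of them higher, with 34.9% of all genes tested as background. TARS2 went up by 2.37 ± 0.26 on the log2 scale to 682, and FARSB by 1.74 ± 0.15 to 2510. TARS1 went down by 0.65 ± 0.12 to 4618. Relative to untreated cells, day 1 left 3 cytosolic enzymes higher (FARSB, FARSA and SARS1; background 5.12%) and 1 lower, LARS1 (background 6.81%), with 0 mitochondrial calls and 4 mitochondrial genes at an unadjusted p under 0.05 in the authors' test. With scaling by the totals of normalized counts the cytosolic count on day 1 was 6 higher and 1 lower, and calls over all genes were 55.9% higher instead of 42.9%. On day 2 no member of either compartment was called in the authors' test and 0 had an unadjusted p under 0.05, with backgrounds of 1.67% higher and 2.44% lower.

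In DDR-Sen at day 0 the cytosolic enzymes had 1 called higher and 8 lower, and the mitochondrial enzymes 1 higher and 2 lower, with 12.5% of all genes tested called higher and 14.2% lower. WARS1 went from 5560 to 3246 (-0.78 ± 0.13), GARS1 from 7492 to 5101 (-0.55 ± 0.10) and AARS1 from 4309 to 3037 (-0.50 ± 0.13). All 3 had risen after SDS. CARS1 rose from 547 to 853 (0.64 ± 0.24). AARS2, the mitochondrial alanine enzyme, rose from 773 to 1211 (0.65 ± 0.16) and remained called on each of days 1 to 4, and was called higher in none of the 16 SDS and KCl comparisons of the authors' test. NARS2, for asparagine, fell from 346 to 235 (-0.55 ± 0.22). The ATF4 list had 4 genes called higher and 5 lower, and ATF4 itself fell (-0.55 ± 0.11).

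Between day 0 and day 1 of DDR-Sen 0 of 35 members differed in the test of the difference, 4 had an unadjusted p under 0.05, and 3.35% of all genes tested were called. On day 1 the cytosolic enzymes had 0 higher (background 8.12%; 0 also at an unadjusted p under 0.05 in the authors' test) and 7 lower (background 10.5%), and the mitochondrial enzymes 1 of each, with AARS2 higher. On day 2, 0 cytosolic genes were higher (background 4.97%; 0 at an unadjusted p under 0.05 in the authors' test) and 2 were lower, among them WARS1 (background 7.15%). By day 6 the cytosolic enzymes had 0 higher (background 10.2%; 0 at an unadjusted p under 0.05 in the authors' test) and 9 lower (background 13.2%), and 3 mitochondrial enzymes were lower, among them LARS2 at 1018 (-0.40 ± 0.13). Day 6 of DDR-Sen and day 8 of Ca2+-Sen were chosen for description after their values were seen.

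The inducers were compared directly on day 0 through the difference of their log2 fold changes, in which the error of the shared untreated libraries counts more than once, so that too few differences are called. Between SDS and DXR, 13 of the 20 cytosolic enzymes differed, all higher after SDS, with a median difference of 0.92, against 27.4% of all genes tested in either direction. GARS1 differed by 2.38 ± 0.14 and WARS1 by 2.17 ± 0.17. CARS1, which was called higher after both inducers, differed by 0.95 ± 0.58 and was not called (95% interval -0.18 to 2.08). Of the mitochondrial enzymes AARS2 (-0.93 ± 0.24) and LARS2 (-0.64 ± 0.19) differed. Between SDS and KCl, 16 cytosolic enzymes differed, all higher after SDS, and 5 mitochondrial enzymes, against 36.9% of all genes tested. TARS2 (2.30 ± 0.27), EPRS1 (1.80 ± 0.13) and IARS1 (1.76 ± 0.12) differed most, and LARS2 was the only member lower after SDS (-0.48 ± 0.19). Between KCl and DXR, 12 cytosolic enzymes differed, 6 in each direction, and 6 mitochondrial enzymes, 5 of them lower after KCl, against 35.5% of all genes tested. The extremes were TARS1 (1.04 ± 0.14) and TARS2 (-1.71 ± 0.27), the threonine enzymes of the cytosol and of the mitochondria.

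**Figure D3:**
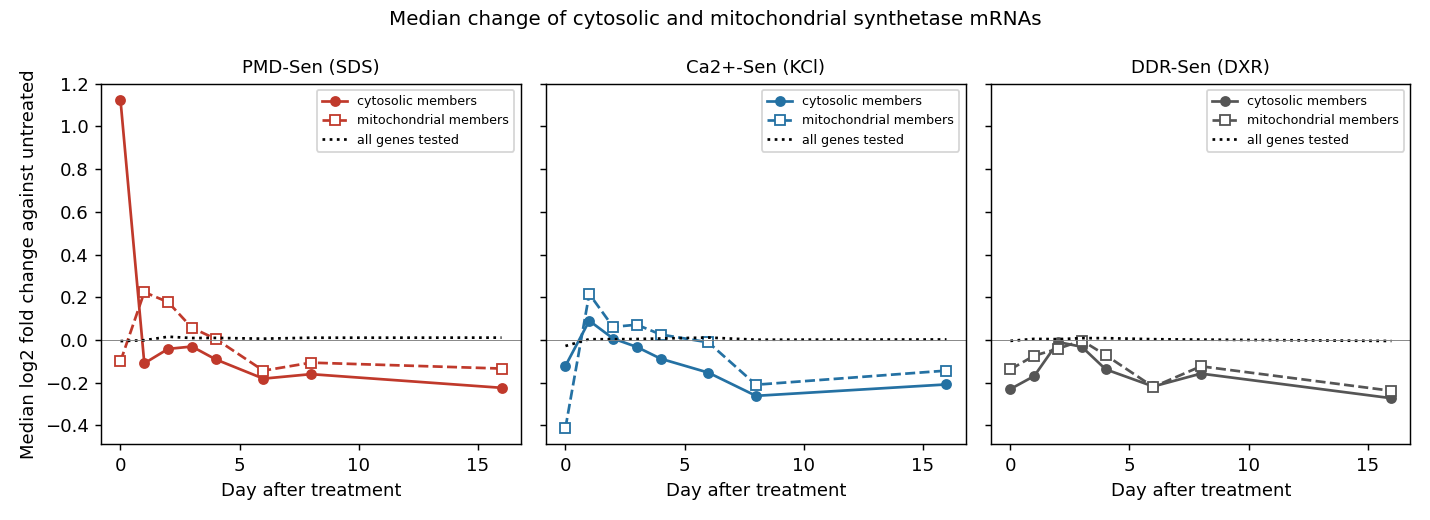
Median log2 fold change against untreated cells of the 20 cytosolic (filled circles) and 15 mitochondrial (open squares) synthetases and of all 15479 genes tested (dotted line), by day after treatment, with 1 panel per inducer. The cytosolic median stands at 1.12 on day 0 of PMD-Sen and lies below 0.1 in size or is negative on every other day shown, and both medians end below 0 on day 16.

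From day 6 on, the median log2 fold change of both compartments was below 0 after every inducer. On day 8 of Ca2+-Sen 2 cytosolic enzymes were higher (background 14.9%) and 11 lower (background 17%), with a median of -0.26, and 1 mitochondrial enzyme was higher and 3 lower. On day 16 of PMD-Sen the cytosolic counts were 1 higher (background 9.26%) and 4 lower (background 11%), and the mitochondrial counts 1 and 2. On day 16 of Ca2+-Sen the cytosolic counts were 0 higher (background 5.47%; 1 at an unadjusted p under 0.05 in the authors' test) and 6 lower (background 5.82%), and the mitochondrial counts 1 and 1. On day 16 of DDR-Sen the cytosolic counts were 1 higher (background 12.7%) and 8 lower (background 16%), and the mitochondrial counts 1 and 3. RS cells had 0 higher in either class (background 11.2%; 0 at an unadjusted p under 0.05 in the authors' test), with 8 cytosolic and 3 mitochondrial enzymes lower (background 11%). The medians on day 16 and in RS lay between -0.13 and -0.32 for both compartments.

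TARS1 and HARS1 were each called lower in all 4 of these late states. TARS1 was at 3152 in PMD-Sen (-0.58 ± 0.14), 3794 in Ca2+-Sen (-0.31 ± 0.09), 3254 in DDR-Sen (-0.54 ± 0.12) and 3360 in RS (-0.49 ± 0.16). HARS1, at 3354 in untreated cells, was at 2561 in PMD-Sen (-0.39 ± 0.14), 2768 in Ca2+-Sen (-0.28 ± 0.09), 2256 in DDR-Sen (-0.57 ± 0.12) and 2277 in RS (-0.56 ± 0.16). FARSB was lower in PMD-Sen (-0.44 ± 0.16), DDR-Sen (-0.59 ± 0.13) and RS (-0.65 ± 0.17) but was not called in Ca2+-Sen (-0.22 ± 0.11). KARS1 was called lower in DDR-Sen (-0.49 ± 0.12) and in RS (-0.58 ± 0.14), where GARS1 was at -0.39 ± 0.13 (called) and -0.30 ± 0.21 (not called). AARS1 was called lower on day 16 only after KCl (-0.31 ± 0.11), at 3473, although its estimates in DDR-Sen (-0.32 ± 0.14) and RS (-0.30 ± 0.19) were of the same size.

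Among the mitochondrial genes, LARS2 was lower on day 16 of DDR-Sen, at 877 from 1344 (-0.62 ± 0.15), and in RS, at 835 (-0.69 ± 0.17), and EARS2 in both as well (-0.44 and -0.58). MARS2, for methionine, was lower on day 16 of PMD-Sen, at 207 from 335 (-0.70 ± 0.25). RARS2, the arginine enzyme, was the only mitochondrial gene called higher on day 16. From 1795 it reached 2454 on day 16 of PMD-Sen (0.45 ± 0.15), 2228 in Ca2+-Sen (0.31 ± 0.11) and 2457 in DDR-Sen (0.45 ± 0.13), and 2236 in RS without a call (0.32 ± 0.21).

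The inducers were also compared directly on day 16. Between KCl and DXR 1 member differed when 6.06% of all genes tested did. Between SDS and DXR 0 members differed by the test of the difference and 0 had an unadjusted p under 0.05, with 0.187% of all genes tested called. Between SDS and KCl 0 members differed and 1, WARS1, had an unadjusted p under 0.05 (difference 0.79 ± 0.25, adjusted p = 0.053), with 2.6% of all genes tested called. The 95% interval of the difference for GARS1 was -0.26 to 0.47 between SDS and DXR and -0.46 to 0.16 between SDS and KCl.

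**Figure D4:**
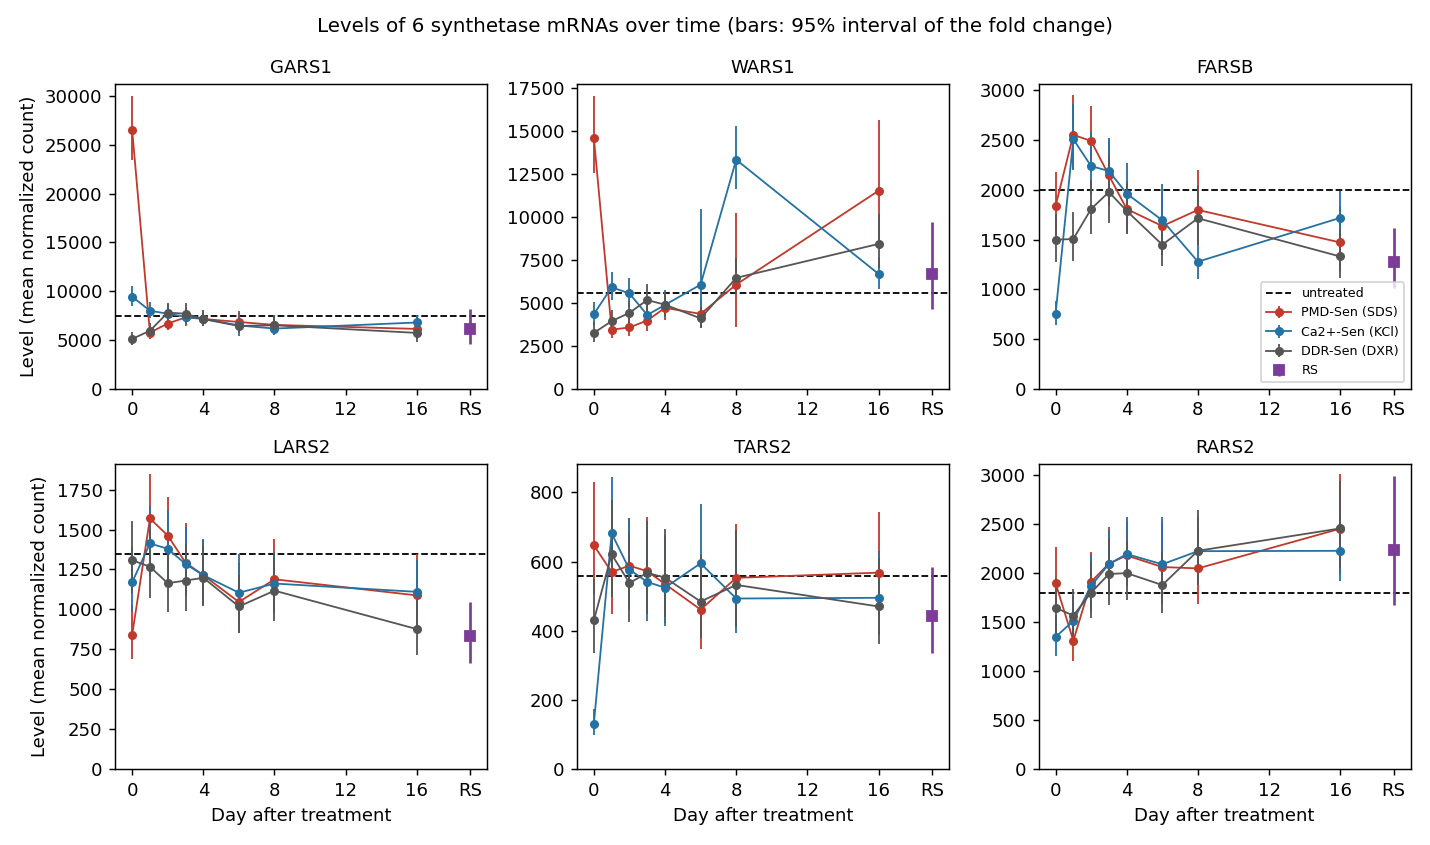
Levels (mean normalized counts) of GARS1, WARS1, FARSB, LARS2, TARS2 and RARS2 by day after treatment in PMD-Sen, Ca2+-Sen and DDR-Sen, with RS at the right and the untreated level as a dashed line. Bars are the 95% interval of the fold change applied to the untreated level. GARS1 peaks at 26512 on day 0 of PMD-Sen, and TARS2 falls to 132 on day 0 of Ca2+-Sen. WARS1 is high on day 0 and again on day 16 of PMD-Sen, and lies below the untreated level on day 0 of Ca2+-Sen and DDR-Sen.

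WARS1 changed direction more than once. After SDS it went from 14609 on day 0 to 3433 on day 1 and to 11519 on day 16 (1.05 ± 0.22). After KCl it was below untreated cells on day 0 (4340, -0.36 ± 0.11), at 13326 on day 8 (1.26 ± 0.10) and at 6679 on day 16 without a call (0.26 ± 0.10). After DXR it was called lower on days 0, 1, 2 and 6 and reached 8425 on day 16 (0.60 ± 0.14), and in RS it stood at 6685 with a wide error (0.27 ± 0.27). It was the only cytosolic member called higher on day 16 of PMD-Sen and of DDR-Sen.

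The interferon gamma genes set beside it did not follow WARS1 on every day. Of 6 tested, 4 were called higher on day 8 of Ca2+-Sen (background 14.9%). On day 16, 3 were called higher in each of PMD-Sen (background 9.26%), Ca2+-Sen (background 5.47%) and DDR-Sen (background 12.7%). The count in RS was also 3 (background 11.2%). GBP2, an interferon-induced GTPase, was at 1400 on day 16 of PMD-Sen from 525 (1.41 ± 0.30), and IRF1, a transcription factor of the pathway, rose by 0.86 ± 0.18. At day 0 of SDS treatment, when WARS1 was at its highest, 0 of the 6 were called higher in the authors' test (background 19%). In that direction 0 had an unadjusted p under 0.05 in the same test. Of the 6, 3 were called lower (background 19.3%), among them GBP1 (-4.02 ± 0.17) and GBP2 (-3.78 ± 0.31). In RS, GBP2 was called higher while WARS1 was not called.

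A promoter window of WARS1 held letters of 2 interferon elements and none of TGATGNAA, and the stretches are printed because WARS1 was called higher late as well as at the end of SDS treatment. The gamma-activated site was searched as TTCNNNGAA. It was found in 5 of the 30 members, against 9.38% of all genes with a window and 7.66% of all windows. The interferon-stimulated response element was searched as GAAANNGAAA. It was found in 2 of the 30 members, against 4.38% of genes and 3.57% of windows. Both strands were searched, and 0 matches of different motifs shared bases in the members. The matches begin at -142 and -55 from the start site of this window, which lies downstream of the first annotated base of WARS1.
WARS1 gamma-activated site (chr14:100375470-100375499, minus strand): gctcaagtgtTTCTGAGAAtctgggtgatt
WARS1 interferon-stimulated response element (chr14:100375383-100375412, minus strand): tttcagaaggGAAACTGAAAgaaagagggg
The gamma-activated letters were also found in PARS2, WARS2, TARS1 and CARS1 and the other element in EARS2. WARS1 was the only member with both.

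Across the 25 comparisons GARS1 ranged from 5101 to 26512, and without day 0 of PMD-Sen no group exceeded 9427. TARS3 ranged from 431 to 804 and was called in 2 comparisons, in opposite directions, lower on day 1 of PMD-Sen and higher on day 8 of Ca2+-Sen (0.40 ± 0.15). HARS1 and HARS2, the cytosolic and mitochondrial histidine enzymes, start next to each other in opposite directions. HARS1 was called higher on days 1 and 2 of PMD-Sen and lower on day 8 of Ca2+-Sen, on day 16 of each inducer and in RS, whereas HARS2 was called in 0 of the 25 comparisons by the authors' test, with 2 at an unadjusted p under 0.05. How the counting treated strand is not given in the sources used here, so reads of neighbouring genes that overlap could not be told apart.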

How the data were processed

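WI-38 mRNA was sequenced in 52 libraries, 2 in each of 26 groups, grouped by their labels. The sources name Trim Galore, HISAT2, HTSeq, featureCounts, DESeq2 and the builds GRCh38 and hg38, without versions, and the annotation and strand setting are not given in the sources used here. The files, of which 25 differ in content, are result tables the authors made against untreated cells, in the form DESeq2 writes, and give nothing for single libraries. For each gene the authors deposited the mean normalized count of both groups (treated as a signal), the log2 fold change with a standard error, the quotient of both as a score, and raw and adjusted p-values. As no counts of single libraries were given, these authors' values were analysed in place of a new fit, so the fold changes, errors and p-values are theirs. Other columns of per-sample values numbered 0.

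Levels share 1 scale, set by the untreated means of 8645 genes that exceeded 200 throughout, and the untreated level of the median gene then had an SD of 0.00043 (log2) over the comparisons. In 23 comparisons 1 row named no gene (at most 0.00223% of the normalized counts) and was left out. Tests covered the 15479 genes averaging at least 10 across the 26 groups, with Benjamini-Hochberg adjustment over these genes. Differences between tables were divided by the root of their summed squared standard errors and given a two-sided normal p. Library sizes were recovered from genes with 1 read in 1 library, and they limit the precision of low genes. Calls, differences and levels were tested on simulated data with known changes. The simulated errors behind a difference were drawn independently, so the sharing of the untreated libraries was not simulated.

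Members and lists (ATF4 targets, interferon gamma genes, the multisynthetase complex, catalytic classes and others) were chosen with earlier results of these data known. Named genes are the 3 largest called rises and falls on days 0 and 16 and in RS, WARS1, GARS1, KARS1, TARS3 and the members not tested; others are named where a sentence turns on them, after their values were seen, and some genes are not reported here. Promoter windows came from RefSeq (GRCh38.p14), 39 windows for the members, and in 35 the bases after the start were found in the same orientation in a GENCODE transcript. Calculations used Python 3.11.15 with SciPy 1.17.1, pandas 2.3.3 and NumPy 2.4.6, and plots matplotlib 3.10.9.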

Additional observations from a re-analysis of the deposited data

Results flagged for a closer look

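The change of a synthetase mRNA relative to untreated cells differed between inducers or between days in 6 of the 9 direct comparisons made. Between SDS and DXR on day 0, 15 members differed, from GARS1 (2.38 on the log2 scale, higher after SDS) to AARS2 (-0.93). Between SDS and KCl on day 0, 21 members differed, from TARS2 (2.30) to LARS2 (-0.48). Between KCl and DXR on day 0, 18 members differed, from TARS1 (1.04) to TARS2 (-1.71). On day 16, 1 member differed between KCl and DXR. From day 0 to day 1 after SDS, 18 members differed, from LARS2 (0.90, higher on day 1) to GARS1 (-2.20), and after KCl 21 members differed, from TARS2 (2.37) to TARS1 (-0.65). Both changes in a difference share the untreated libraries, and differences of single genes rest on 2 libraries in each group.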

How the results depend on the processing

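No paired analysis was possible because the tables hold no value of a single library, and for the same reason no replicate could be left out. Of the 15 comparisons described, each with a cytosolic and a mitochondrial count, all 30 counts under the authors' own adjusted p-value were within 1.5 times the counts given in the report. The same held for 38 of 39 counts, differences included, with a mean level of at least 100, for 36 under scaling by totals and for 34 without a filter on low levels. The 29 log2 fold changes of named members kept their direction and their call under both other scalings, which moved all genes by at most 0.06 on the log2 scale, and the class medians moved by less than a typical standard error.

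Without the filter, the cytosolic counts were 3 on day 16 of PMD-Sen (1 higher, 2 lower), 2 on day 1 of Ca2+-Sen, 3 on its day 16 and 1 on day 2 of DDR-Sen, and the mitochondrial count on day 16 of Ca2+-Sen was 1. Scaling by totals gave 7 cytosolic calls on day 1 of Ca2+-Sen and 1 on day 2 of DDR-Sen. Between SDS and KCl on day 16, 1 member differed, higher after SDS, under scaling by totals and also with a mean of at least 100.

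Requiring a log2 change of at least 0.5 removed many calls by its construction. Of the cytosolic enzymes it left 2 on day 1 and 2 on day 2 of PMD-Sen and 3 on day 16, 4 on day 0 of Ca2+-Sen, 0 on day 1, 4 on day 8 and 0 on day 16, 4 on day 0 of DDR-Sen, 0 on days 1 and 2, 1 on day 6 and 5 on day 16, and 4 in RS. Of the mitochondrial enzymes it left 2 on days 0 and 1 of PMD-Sen and 0 on day 2, 2 on day 8 and 1 on day 16 of Ca2+-Sen, and 1 on day 1, 1 on day 6 and 2 on day 16 of DDR-Sen. Between day 0 and day 1 after KCl 13 members differed by this size.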

Other observations

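Of the 35 synthetases tested, WARS2, FARS2 and HARS2, all mitochondrial, were called in none of the 25 comparisons of the authors' test. The number of members not called in any comparison was thus 3, with 0, 2 and 2 comparisons at an unadjusted p under 0.05. DTD1, which encodes a deacylase that removes D-amino acids from tRNA, was called lower on day 0 of Ca2+-Sen (-1.39) and on day 16 of PMD-Sen (-0.59) and of DDR-Sen (-0.72). The scaffold EEF1E1, not called at the end of SDS treatment, was lower on day 16 of PMD-Sen (343 to 166, log2 fold change -1.05) and of DDR-Sen (-0.70), and AIMP1 was lower in both (-0.68 and -0.52) and in RS (-0.52).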
